A study of Mus musculus with 8 samples.

Results

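The immunity-related GTPases are a family of interferon-inducible proteins, and 7 of their genes were examined in mouse regulatory T cells (Treg) with and without a loxP-flanked Pdpk1. The 7 genes, Igtp, Irgm1, Irgm2, Tgtp1, Tgtp2, Iigp1 and Ifi47, were chosen by family, and all 7 were found among the 19826 genes of the deposited table. All 7 entered the test, which 13847 genes could enter, and none of their values was below a normalized count of 127 in any library. A normalized count is the number of reads of a gene divided by the size factor the authors computed for its library. Treg are the CD4+ T cells that depend on the transcription factor Foxp3 and hold other immune cells in check. The WT group (4 libraries) came from Foxp3 YFP-Cre/+ Pdpk1 +/+ mice and the group labelled Pdpk1 KO (4 libraries, called KO-labelled here) from Foxp3 YFP-Cre/+ Pdpk1 FL/FL mice, all C57BL/6 and untreated. Every mouse therefore carried Cre on a single copy of the X-linked Foxp3 gene, so Treg without Cre were also present in each animal. Only CD4+ YFP+ cells of spleen and peripheral lymph nodes were sorted, by flow cytometry. PolyA RNA was sequenced. The labels do not say whether a library was 1 mouse or a pool, so the p-values measure the spread between libraries, which may be partly technical. The sources used here give no ages.

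Immunity-related GTPases are made when interferon gamma reaches a cell. Its receptor signals through the kinases JAK1 and JAK2, and genes that respond to it often carry the promoter element called GAS, while genes that respond to type I interferons often carry the element called ISRE. The family is known above all for defending cells against parasites and bacteria that live inside a vacuole. The effector proteins, here the products of Tgtp1, Tgtp2, Iigp1 and Ifi47, gather on the vacuole membrane and disrupt it. The regulatory proteins, the products of Irgm1, Irgm2 and Igtp, sit on the cell's own membranes and hold the effectors inactive there. Irgm1 is also known to be needed for the survival of CD4+ T cells exposed to interferon gamma.

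All members but Iigp1 lie on chromosome 11, and the promoter stretches that carry interferon motifs are shown because 4 members, in both of its clusters, carry them in the same arrangement. RefSeq promoter windows (build GRCm38.p6, 250 bases before to 50 after an annotated start) were found for 6 of the 7 members, all but Iigp1. They were searched on both strands for the ISRE, written as GAAA, any 2 bases, GAAA, and for the GAS, written as TTC, any 3 bases, GAA. The stretches below are read 5′ to 3′ on the strand of the gene, and capitals mark the matches.
Irgm1: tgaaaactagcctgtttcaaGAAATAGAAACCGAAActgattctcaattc
Igtp: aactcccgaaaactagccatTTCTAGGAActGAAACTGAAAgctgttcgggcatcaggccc
Irgm2: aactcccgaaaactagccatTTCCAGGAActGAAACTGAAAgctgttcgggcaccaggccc
Tgtp1: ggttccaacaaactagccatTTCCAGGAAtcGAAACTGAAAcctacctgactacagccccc
Tgtp2: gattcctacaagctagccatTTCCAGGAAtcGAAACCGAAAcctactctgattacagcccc

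These stretches are chr11:48871421-48871470 (minus strand) for Irgm1, chr11:58199491-58199551 (plus) for Igtp, chr11:58214882-58214942 (plus) for Irgm2, chr11:48992294-48992354 (minus) for Tgtp1 and chr11:49064253-49064313 (minus) for Tgtp2. In Igtp, Irgm2, Tgtp1 and Tgtp2 a GAS match was followed after 2 bases by an ISRE match. The ISRE match began 34 bases before the annotated start in Igtp, 64 in Irgm2, 77 in Tgtp1 and 70 in Tgtp2. Irgm1 held 2 overlapping ISRE matches, 30 and 24 bases before its start, and no GAS match. The Ifi47 window, which belongs to the farthest upstream of its annotated starts, held neither. Of all 32851 RefSeq windows, 3.44% held an ISRE match and 8.3% a GAS match. A GAS match followed within 2 bases by an ISRE match, a search added after the single matches had been seen, was present in 5 of 32851 windows (0.0152%). These were the windows of Igtp, Irgm2, Tgtp1, Tgtp2 and Gm12185, a further gene of the family. In either order the pair was present in 8 windows (0.0244%), with the ISRE match first in Usp17ld, Usp17lc and Ifitm3, genes outside the family. A match describes the letters of the window and does not show that a factor is bound there.

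**Figure D1:**
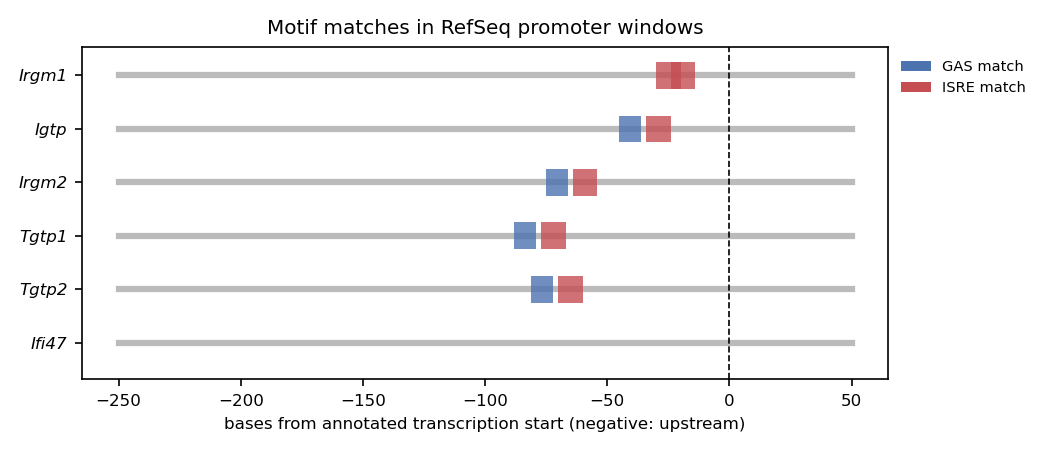
Positions of motif matches in the RefSeq promoter windows of 6 members, in bases from the annotated start (x axis, negative upstream, dashed line at the start), with GAS matches in blue and ISRE matches in red. Igtp, Irgm2, Tgtp1 and Tgtp2 show the GAS match directly upstream of the ISRE match, Irgm1 shows 2 overlapping ISRE matches and Ifi47 none.

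Depth and the sorted population were checked first. Recovered reads ranged from 17448095 to 26299577 per library, and the members together took 11919 to 14244 normalized counts in WT and 14267 to 20675 in KO-labelled libraries. Pdpk1 itself had 2223 ± 320 normalized counts in WT and 1983 ± 365 in KO-labelled libraries (SD, n = 4 each, exact two-sided permutation p = 0.286), a value summed over all exons that does not check the labels. All 8 Treg markers examined, Foxp3 among them, were present in every library. Their mean log2 level was 12.8 to 12.9 in WT and 12.5 to 12.65 in KO-labelled libraries, without overlap. The markers did not all go the same way. The highest Ikzf2 value was 10100 normalized counts in WT and 4510 in KO-labelled libraries. Highest values were also lower in KO-labelled libraries for Ctla4, Cd4, Cd3e, Cd3g and Tnfrsf18. They were higher there for Il2ra (16900 in WT and 27800) and slightly higher for Foxp3 (6100 in WT and 6340). Both CD8 T cell markers examined, Cd8a and Cd8b1, were above 0 in every library, with a mean log2 level of 4.88 to 6.72 in WT and 6.93 to 7.36 in KO-labelled libraries. Their summed level overlapped, at 268 to 512 normalized counts in WT and 365 to 528 in KO-labelled libraries. The highest value of Cd8a was 31.3 in WT and 55.9 in KO-labelled libraries, and that of Cd8b1 492 and 472. The 19 macrophage markers examined were all in the table, with a summed level of 1434 to 2444 normalized counts in WT and 1895 to 4695 in KO-labelled libraries. Axl, with a highest value of 1300 in WT and 796 in KO-labelled libraries, takes much of that sum and ran against markers such as Lyz2 (127 and 604) and C1qa (159 and 518). The mean log2 level of the list, by which libraries were ranked, was 2.71 to 5.57 in WT and 5.12 to 6.92 in KO-labelled libraries. Of the 19, Vsig4 was at 0 in 6 of the 8 libraries, and 8 markers, among them Mertk, Marco and Cd163, were at 0 in at least 1 library. The 6 B cell markers in the table summed to 443 to 565 normalized counts in WT and 163 to 307 in KO-labelled libraries. Cd79b, with a highest value of 469 in WT and 195 in KO-labelled libraries, takes much of that sum. Highest values of Cd22, Pax5 and Blk were also lower there, while Cd79a (64.4 and 117) and Ms4a1 (3.13 and 9.39) ran the other way. The mean log2 level of the list overlapped, at 3.51 to 4.52 in WT and 3.05 to 3.54 in KO-labelled libraries. The part of these cell markers in the members' differences was not tested. KO-labelled replicates 2 and 3 and WT replicate 2 were highest in the mean log2 of the macrophage markers, so member values are also given without these 3 libraries where that ends a call or makes one. That setting keeps WT replicates 1, 3 and 4 and only KO-labelled replicates 1 and 4. Between them, those KO-labelled libraries had the highest value of their group for every member. Whether calls made or lost there reflect macrophage RNA or the choice and number of libraries was not tested. Since the libraries are bulk RNA, fewer cells with a transcript and less of it per cell cannot be told apart.

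All 7 members had a higher mean in KO-labelled libraries, and 2 of them, Tgtp1 and Igtp, rose past the threshold (limma, adjusted p under 0.05 over all genes). Over all 13847 genes, 4.41% were called higher and 5.06% lower, 9.47% together. No member was called lower by limma, edgeR or DESeq2, and at an unadjusted p under 0.05 limma had 4 members higher and 0 lower, against 10.8% and 12.2% of all genes. edgeR called 2 members higher, against 4.33% of all genes, and DESeq2 called 3, against 6.14%. Without the 3 libraries highest in macrophage markers limma called 2, Tgtp1 and Iigp1, against 1.21% of all genes, and with the mean of these markers as a covariate it called Tgtp1 alone, against 1.49%. With the replicate number as a block it called 4, against 8.98%. The median log2 change of the members was 0.39, against -0.01 over all genes tested. A log2 change above 0 was found for 7 of 7 members and for 49.1% of all genes. Values of the 4 KO-labelled libraries lay wholly above the 4 WT libraries for 2 of 7 members, the same Tgtp1 and Igtp, and for 7.06% of all genes. No member lay wholly below, as 8.24% of all genes did, and 15.3% of genes did not overlap in either direction.

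**Figure D2:**
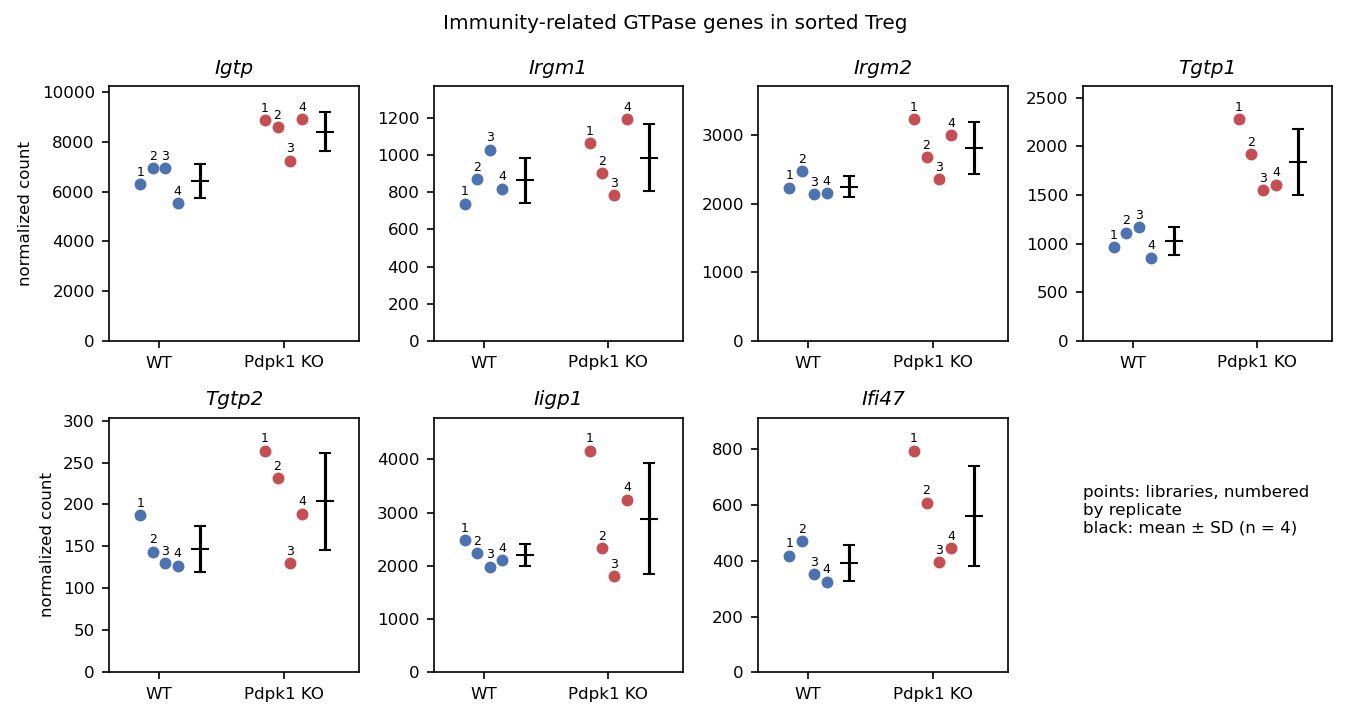
Normalized count of each member (y axis, from 0) in the 4 WT and 4 Pdpk1 KO libraries, with points numbered by replicate and the mean ± SD in black. For Igtp and Tgtp1 every Pdpk1 KO point stands above every WT point, and replicate 3 is the lowest Pdpk1 KO point in all 7 panels.

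Of the regulators, Igtp (ENSMUSG00000078853, chromosome 11, 58199556 to 58207591, plus strand, GENCODE M21 on GRCm38) was the most abundant member. It stood at 6286, 6945, 6937 and 5526 normalized counts in WT replicates 1 to 4 and at 8882, 8592, 7244 and 8906 in KO-labelled libraries. The groups did not overlap, although the lowest Pdpk1 KO value was only slightly above the highest WT value. The log2 change was 0.39 ± 0.10 (SE), a 1.31-fold difference with a 95% interval of 1.12 to 1.53 (adjusted p = 0.0265). That call rested on several libraries. It was lost when WT replicate 4 was left out (log2 change 0.32, adjusted p = 0.0974) and when KO-labelled replicate 1, 2 or 4 was left out (adjusted p = 0.0528, 0.0662 and 0.0664). With the 3 libraries that lead in macrophage markers left out, the change was larger, 0.52, but not past the threshold (adjusted p = 0.0857).

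Irgm2 (ENSMUSG00000069874, chromosome 11, 58199618 to 58222782, plus strand) lies beside Igtp, and its outermost annotated transcript begins inside the Igtp gene. The pair share 162 exon bases, 8.01% of those of Igtp and 4.39% of those of Irgm2, and the handling of reads from shared exons was not given in the sources used here. Irgm2 had 2235, 2470, 2135 and 2156 normalized counts in WT replicates 1 to 4 and 3231, 2675, 2357 and 3003 in KO-labelled libraries. All but KO-labelled replicate 3 exceeded every WT value. The log2 change was 0.32 (95% interval 0.09 to 0.54, limma adjusted p = 0.0796), not past the threshold, while DESeq2 on the recovered reads gave 0.33 with an adjusted p of 0.0375. Without KO-labelled replicate 3 limma gave 0.40 and called it (adjusted p = 0.0391).

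Irgm1 (ENSMUSG00000046879, chromosome 11, 48861968 to 48871683, minus strand), the regulator tied to T cell survival, showed the smallest difference among the 7. Its normalized counts were 738, 869, 1029 and 819 in WT and 1063, 904, 786 and 1193 in KO-labelled libraries, with interleaved values. The log2 change was 0.18, with a 95% interval from -0.12 to 0.49 (adjusted p = 0.493). A rise of up to 1.40-fold or a small fall would both lie within that interval. Single libraries moved the value, to 0.09 without KO-labelled replicate 4, 0.11 without WT replicate 1 and 0.29 without KO-labelled replicate 3, so its place as the smallest is uncertain.

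Among the effectors, Tgtp1 (ENSMUSG00000078922, chromosome 11, 48985327 to 48994172, minus strand) rose most. It stood at 963, 1112, 1167 and 854 normalized counts in WT replicates 1 to 4 and at 2277, 1917, 1550 and 1604 in KO-labelled libraries. Every Pdpk1 KO value was well above every WT value. The log2 change was 0.84 ± 0.14 (SE), a 1.79-fold rise with a 95% interval of 1.46 to 2.18 (adjusted p = 0.00105). The call held in each of the 20 alternative settings tried, with changes from 0.73 to 0.95 and adjusted p from 5.73e-07 to 0.0362. Leaving out the library highest in macrophage markers is the same fit as leaving out KO-labelled replicate 2, and both are counted. Without the 3 libraries highest in macrophage markers the change was 0.95 (adjusted p = 0.0172).

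Tgtp2 (ENSMUSG00000078921, chromosome 11, 49057194 to 49064206, minus strand) is a near-identical copy of Tgtp1. Of the different stretches of 50 bases in annotated Tgtp1 transcripts, 79.4% also occur in Tgtp2 transcripts, and 85.8% of those of Tgtp2 occur in Tgtp1. How reads that fit both copies were counted was not given, so the division between the copies is uncertain. Tgtp2 had 187, 144, 130 and 127 normalized counts in WT and 264, 231, 130 and 189 in KO-labelled libraries. KO-labelled replicate 3 stood at the level of WT replicate 3, and the other 3 exceeded every WT value. The log2 change of 0.44 (95% interval -0.09 to 0.96) was not past the threshold (adjusted p = 0.322), and ranged from 0.30 without KO-labelled replicate 1 to 0.63 without KO-labelled replicate 3. The sum of both copies depends less on how reads were divided. It was 1171 ± 141 normalized counts in WT and 2041 ± 389 in KO-labelled libraries (SD, n = 4 each), a ratio of 1.74. Each KO-labelled library, at 1681 to 2542, was above each WT library, at 981 to 1297. Tgtp1 also shares 223 exon bases, 6.96% of its own, with the overlapping family gene Gm12185.

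Iigp1 (ENSMUSG00000054072, chromosome 18, 60376027 to 60392634, plus strand) was the only member outside chromosome 11, and the one most uneven among KO-labelled libraries. Its WT values of 2489, 2233, 1984 and 2111 normalized counts were close together. In KO-labelled libraries it had 4162, 2327, 1804 and 3244, so that replicates 1 and 4 exceeded all WT values and replicate 3 fell below them. The highest Pdpk1 KO value was 2.31 times the lowest, against 1.25 times in WT. The log2 change was 0.32 (95% interval -0.09 to 0.73, adjusted p = 0.355). It was 0.75 and past the threshold without the 3 libraries highest in macrophage markers (adjusted p = 0.0243). That setting keeps only 4162 and 3244 of the KO-labelled values. The change was 0.12 without KO-labelled replicate 1 (adjusted p = 0.71).

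Ifi47 (ENSMUSG00000078920, chromosome 11, 49076587 to 49096974, plus strand) had 419, 471, 352 and 326 normalized counts in WT and 795, 609, 396 and 445 in KO-labelled libraries. KO-labelled replicates 1 and 2 were above all WT values and the other 2 were inside the WT range. The log2 change was 0.48 (95% interval 0.05 to 0.91, adjusted p = 0.168), not past the threshold. It ranged from 0.29 without KO-labelled replicate 1 to 0.63 without KO-labelled replicate 3. Of its exon bases, 8.77% overlap Olfr56 or a pseudogene.

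Within each library, the ratio of 2 members does not depend on the scaling of that library. For 2 of the 21 pairs of members this ratio did not overlap between the groups, and Tgtp1 was in both. Igtp counts were 5.94 to 6.53 times those of Tgtp1 in WT and 3.90 to 5.55 times in KO-labelled libraries. Irgm1 counts were 0.767 to 0.959 times those of Tgtp1 in WT and 0.467 to 0.744 times in KO-labelled libraries. These ratios are a description, with no test, and the share of other gene pairs whose ratio does not overlap was not computed. Without that share, the count alone does not show that the members differed in the size of their change.

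Per kilobase of annotated exon, Igtp was far above the others in both groups, at 3177 ± 333 normalized counts per kilobase in WT (SD, n = 4). Irgm2 followed at 610 ± 41.6, then Iigp1 at 379 ± 37.0 and Tgtp1 at 319 ± 44.5, whose ranges overlapped. Ifi47 at 159 ± 26.6 and Irgm1 at 149 ± 21.1 also overlapped, and Tgtp2 was lowest, with no library above 63.7. In KO-labelled libraries the order was the same except that Tgtp1, at 573 ± 104, stood before Iigp1, at 495 ± 178, with overlapping ranges. There Igtp had 4157 ± 390 normalized counts per kilobase. Irgm2, Tgtp1, Iigp1, Ifi47 and Irgm1 formed a run in which each gene's range overlapped the next, while Tgtp2 stayed below all of Irgm1. Full exon length was used, although 81.2% of the 50-base stretches of Tgtp1 and 86.6% of those of Tgtp2 occur in other genes. Since the counting of such reads was not given, the places of Tgtp1 and Tgtp2 in both orders are uncertain.

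The members varied together among KO-labelled libraries. Replicate 1 was the highest library of that group for 5 of 7 members and replicate 4 for the remaining 2. Replicate 3 was lowest for 7 of 7. As a mean over the members, KO-labelled replicates 1 to 4 were 0.76, 0.44, 0.05 and 0.45 above the WT mean on the log2 scale. The 4 WT libraries lay between -0.15 and 0.10, so replicate 3 was inside the WT range. Over the 8 libraries the correlation between 2 members, Pearson's r, had a median of 0.74 over the 21 pairs (0.35 to 0.93). After each group's mean was subtracted it was 0.58 (0.14 to 0.91). These values share library and scaling and are given as a description.

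A further 10 genes of the family were in the table, of which 8 could be tested: 1 was higher, 0 lower and 7 not called by limma (2 higher and 1 lower at an unadjusted p under 0.05). Of all genes, limma called 4.41% higher and 5.06% lower, and 10.8% and 12.2% passed at an unadjusted p under 0.05. The median log2 change of these family genes was 0.24. Gm12250, the gene also known as Irgb10 and annotated in GENCODE M21 as a processed pseudogene, was the one called. It had 1211, 1218, 1096 and 1012 normalized counts in WT and 2290, 1585, 1464 and 1406 in KO-labelled libraries, and the groups did not overlap. Its log2 change was 0.55 ± 0.14 (SE, adjusted p = 0.0222), a call lost without WT replicate 3 (0.53, adjusted p = 0.0566), without WT replicate 4 (0.49, adjusted p = 0.0772) and with the 3 libraries that lead in macrophage markers left out (0.70, adjusted p = 0.083).

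Gm4951 was at 113 ± 31.1 and 198 ± 64.6 normalized counts (SD, n = 4 each, log2 change 0.78, adjusted p = 0.0982). DESeq2 called it higher, at 0.82 (adjusted p = 0.0434), as did limma without KO-labelled replicate 3, at 0.98 (adjusted p = 0.0474). Gm4841 had 186 to 254 normalized counts in WT and 18.0 to 146 in KO-labelled libraries, without overlap, and a log2 change of -1.33 (95% interval -2.39 to -0.27) that was not past the threshold (adjusted p = 0.117). That value rested largely on KO-labelled replicate 3, without which it was -0.63, and it was -0.59 without the 3 libraries. The changes of 9930111J21Rik1, 9930111J21Rik2 and Gm12185 were 0.26, 0.22 and 0.40, and that of F830016B08Rik was -1.16 with an interval from -3.23 to 0.90. F830016B08Rik was at -0.03 without KO-labelled replicate 3 and turned to 0.20 without the 3 libraries and 0.54 with the covariate. Without KO-labelled replicate 1, 9930111J21Rik1 was at -0.01, 9930111J21Rik2 at 0.09 and Gm12185 at 0.17. Irgq, a family gene not known as an interferon target, had 528 ± 81.2 and 540 ± 144 normalized counts, a log2 change of 0.00 (95% interval -0.42 to 0.42). Irgc1 and Gm5431 were too low to test.

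**Figure D3:**
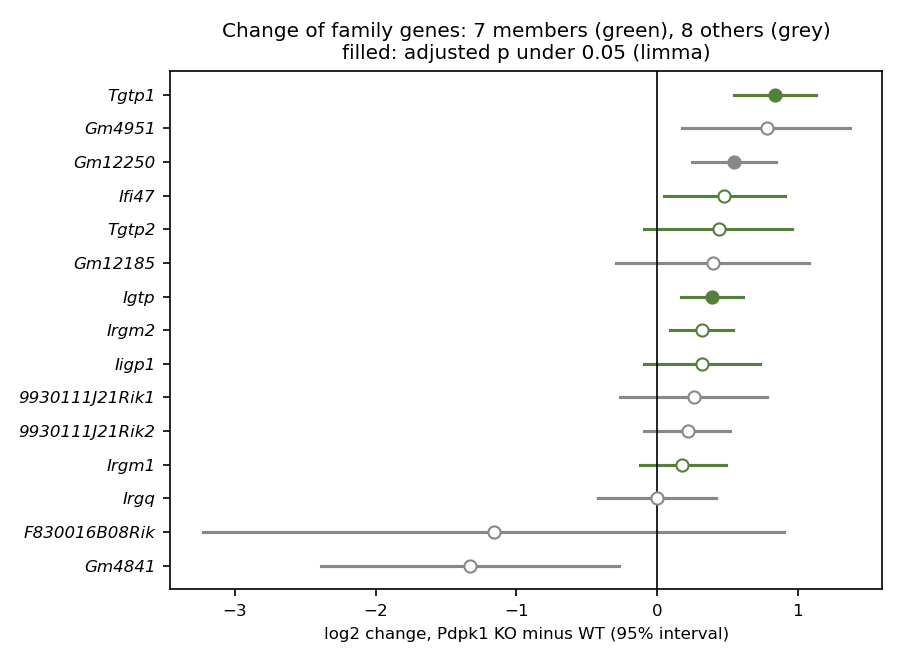
Log2 change of the 7 members (green) and the 8 other tested family genes (grey), KO-labelled libraries minus WT (x axis), with 95% intervals and filled points where the limma adjusted p was under 0.05. Tgtp1, Gm12250 and Igtp are filled, and Gm4841 and F830016B08Rik lie left of 0, the latter turning to 0.20 without the 3 libraries highest in macrophage markers.

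Most genes of the interferon gamma receptor and its signalling were not called. Of 14 tested, limma called 0 higher, 2 lower (Irf8 and Ifng) and 12 neither (DESeq2 also 0 higher). Over all genes limma called 4.41% higher and 5.06% lower. At an unadjusted p under 0.05 limma had 2 of the list higher and 6 lower, against 10.8% and 12.2% of all genes. The median log2 change of the list was -0.12. The receptor chains Ifngr1 and Ifngr2 had log2 changes of -0.32 and 0.10 (adjusted p = 0.169 and 0.665), and the kinases Jak1 and Jak2 0.24 and 0.17 (adjusted p = 0.176 and 0.416). Irf1, which encodes a factor that binds ISRE-like sites, was at 5302 ± 429 and 5271 ± 712 normalized counts (SD, n = 4 each), a change of -0.01. The factor gene Irf8 fell from 778 ± 46.4 to 408 ± 42.8 normalized counts (log2 change -0.93, adjusted p = 0.000204). Ifng, the gene of the cytokine itself, fell from 48.5, 26.1, 32.2 and 14.9 normalized counts in WT to 6.52, 7.67, 0 and 0 (adjusted p = 0.0309). These counts are near the floor of 2.56 to 3.38 normalized counts that a count of 0 allows. The Ifng call was lost without any 1 of the WT replicates or without KO-labelled replicate 3 or 4 (adjusted p from 0.0538 to 0.102), and edgeR gave -3.06 with an adjusted p of 0.0606. It was also lost with the 3 libraries left out (adjusted p = 0.127) and with the covariate (adjusted p = 0.254).

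Few other interferon gamma response genes were called. Of 23 tested, limma called 1 higher, 1 lower and 21 neither, with a median log2 change of 0.02. These counts are near the shares over all genes, 4.41% higher and 5.06% lower. Wars, a tryptophanyl-tRNA synthetase gene, rose from 1979 ± 342 to 3083 ± 322 normalized counts, and the chemokine gene Cxcl10 fell from 92.1 ± 28.3 to 27.0 ± 10.9. Without the 3 libraries highest in macrophage markers both calls were lost, at 0.55 and -1.53 (adjusted p = 0.0647 and 0.097). Of 9 tested genes of type I interferon reception, only Tyk2, a kinase of that receptor, was called, lower by limma at a log2 change of -0.41 (adjusted p = 0.0187). Its call was lost without WT replicate 1 or 4 or without KO-labelled replicate 2 or 3 (adjusted p from 0.0503 to 0.0584), with the 3 libraries left out (adjusted p = 0.176) and with the covariate (-0.19, adjusted p = 0.532).

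The related guanylate-binding proteins, which act on the same vacuoles, were tested with Gvin1, Mx1 and Mx2. Of these 14 genes, limma called 4 higher, 1 lower and 9 neither, against 4.41% higher and 5.06% lower over all genes. Their median log2 change was 0.30. Gbp2 went from 3015 ± 443 to 11915 ± 2510 normalized counts (log2 change 1.97) and Gbp3 from 1922 ± 201 to 4713 ± 603 (1.29), both larger in size than the change of any immunity-related GTPase called, a difference that was not tested. Gbp7 rose by 0.75, and Gbp8 fell by 0.50 on the log2 scale, a call lost without the 3 libraries (adjusted p = 0.0874). Of 39 type I interferon response genes, limma called 7 higher, 0 lower and 32 neither, with a median of 0.30. The shares over all genes were again 4.41% higher and 5.06% lower. At an unadjusted p under 0.05, 13 of the list were higher and 0 lower, against 10.8% and 12.2% of all genes. DESeq2 also called 0 of the list lower, against 912 of all 13847 genes. Samhd1, Ifi209, Ifi206 and Oasl2 rose by log2 changes of 0.47, 0.51, 0.54 and 0.94. The Ifi206 call was lost without WT replicate 4 (adjusted p = 0.0733), and that of Oasl2 without WT replicate 2, 3 or 4 or KO-labelled replicate 4 (adjusted p from 0.057 to 0.0898). All but Oasl2 lost the call without the 3 libraries (adjusted p from 0.0558 to 0.187). With the macrophage marker mean as a covariate the calls of Samhd1, Ifi209, Ifi206, Gbp8, Cxcl10 and Gm12250 were lost (adjusted p from 0.089 to 0.349). Samhd1 was at 0.15 and not called under quantile normalization (adjusted p = 0.461). The count of 7 was 3 under quantile normalization and 11 by DESeq2, and 3 or 4 when WT replicate 2 or 4 or KO-labelled replicate 1 or 4 was left out. DESeq2 called 6.14% of all genes higher.

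By library, the type I response list stood 0.69, 0.09, 0.02 and 0.64 above its WT mean (log2) in KO-labelled replicates 1 to 4, and the guanylate-binding list 0.99, 0.25, 0.22 and 0.57. Both lists were, like the members, highest in replicate 1 and lowest in replicate 3. Replicate 2 lay close to replicate 3 in both lists, whereas the members stood at 0.44 in replicate 2 and 0.45 in replicate 4. WT libraries ranged from -0.28 to 0.31 and from -0.17 to 0.38. The mean of the 13 interferon gamma signalling genes other than Ifng lay between -0.22 and -0.08 in KO-labelled libraries. Single genes of that list had log2 changes from -0.93 (Irf8) to 0.27 (Irf2), and 5 of all 14 were above 0. Besides the receptor, kinases and factors, the list holds Socs1 (-0.47), Socs3 (-0.45), Ptpn11 (-0.23), Pias1 (-0.01) and Ptpn2 (0.16). The summed macrophage marker level of the same replicates was 2197, 4695, 4170 and 1895 normalized counts, so replicate 3, lowest in the members, was the second highest in these markers.

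**Figure D4:**
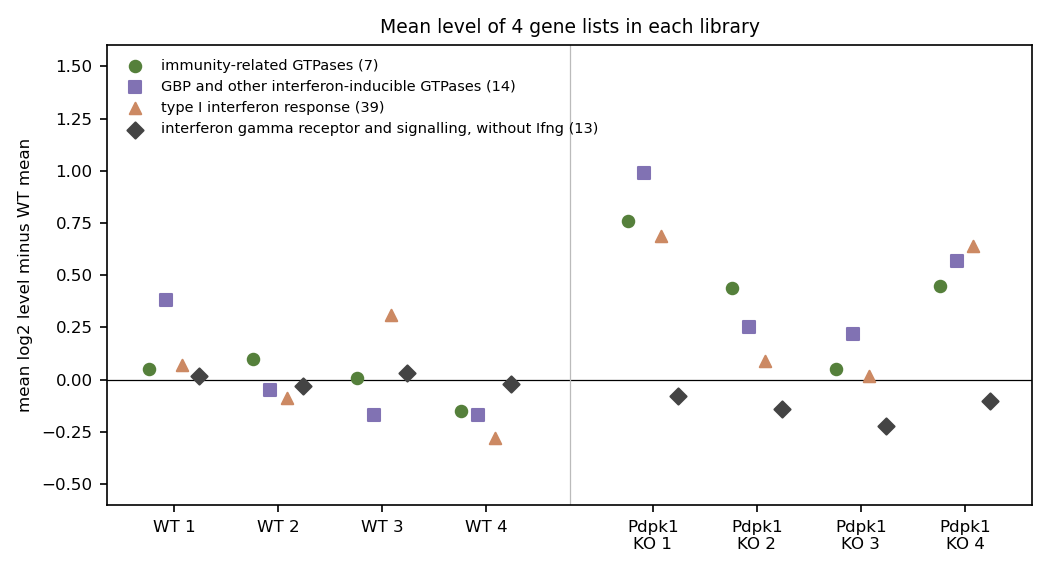
Mean log2 level of 4 gene lists in each library (x axis) minus the mean of the WT libraries (y axis), with the number of genes in brackets. The members (green) stand above all WT libraries in KO-labelled replicates 1, 2 and 4 and inside the WT range in replicate 3, while the signalling list without Ifng (dark) lies below 0 in all 4.

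Proteins of the autophagy machinery place immunity-related GTPases on vacuole membranes. Of 12 such genes, 0 were called in either direction by limma or DESeq2. At an unadjusted p under 0.05, limma had 1 higher and 1 lower, with a median log2 change of 0.03. Over all genes limma called 9.47% in either direction, and 10.8% were higher and 12.2% lower unadjusted. DESeq2 called 850 higher and 912 lower of 13847. Counts this small do not set the 12 genes apart from all genes. The most abundant, Gabarap and Map1lc3b, had 3932 ± 716 and 3455 ± 641, and 2684 ± 178 and 3009 ± 343 normalized counts in WT and KO-labelled libraries (SD, n = 4 each, adjusted p = 0.514 and 0.388).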

How the data were processed

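Each value of the authors' deposited table is a signal, the read count of 1 gene in 1 library over a size factor of that library. Tools listed in the submitters' processing notes, without roles, are DESeq2 1.21, featureCounts of Subread 2.0.1, STAR 2.7.6a, Trimmomatic 0.39 and SAMtools 1.11, with build GRCm38. Strand setting, annotation and the handling of multiply mapped reads are not given in the sources used here. Divided by the value of 1 read, 100% of values in each library came out whole (tolerance 0.001), which gave reads and depth. Symbols and positions are those of GENCODE M21 (19775 of 19826 genes matched).

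Genes with a normalized count of 10 or more in at least 4 of the 8 libraries were tested (13847; 5979 removed). Values were compared as log2(normalized count + 1) with limma 3.58.1 in R 4.3.3 (trended eBayes). Tests were two-sided, and calls needed a Benjamini-Hochberg adjusted p under 0.05. Log2 changes and folds are on that scale, KO-labelled minus WT. The recovered reads were also tested with edgeR 4.0.16 and DESeq2 1.42.0. The permutation test of Pdpk1 used all 70 assignments. The floor of a count of 0 (3 reads) covers counting error only. The fits were tested on simulated data. Motif searches were exact.

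Members, lists and tests were chosen with earlier results of these data known. Named genes were the members, Pdpk1, Foxp3, the other family genes, up to 4 called genes of each list with the smallest adjusted p (or the 2 most abundant where none was called), and the interferon gamma receptor, its kinases, Irf1 and Ifng. A named item is not reported here.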

Additional observations from a re-analysis of the deposited data

How the results depend on the processing

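In all 20 alternative settings every member kept a log2 change above 0. The setting without the library highest in macrophage markers repeats that without KO-labelled replicate 2. Over all genes, 611 were called higher and 700 lower. These counts were 206 and 265 with the macrophage marker mean as a covariate, and 167 and 305 when the 3 libraries that lead in these markers were left out. Leaving out 1 library at a time gave 389 to 588 higher and 495 to 724 lower, with 389 higher lacking WT replicate 4 and 395 lacking KO-labelled replicate 3. The 2 members called higher became 1 with the covariate and 1 without the library highest in macrophage markers (KO-labelled replicate 2), and 1 to 3 when 1 library was left out; 0 members were called lower in each of these. Igtp was at 0.40 with the covariate (adjusted p = 0.19), 0.52 without the 3 libraries and 0.38 without the highest one (adjusted p = 0.0662), none past the threshold, and between 0.32 and 0.46 when 1 library was left out. Irgm2 was past the threshold with DESeq2 (0.33), and lay between 0.25 and 0.40 when 1 library was left out. Iigp1 was past it without the 3 libraries (0.75). The causes of these shifts were not tested. The replicate numbers were not shown to pair libraries, and whether they do is not settled here. Deviations of same-numbered libraries correlated at r = 0.22, 0.09, 0.05 and 0.11. For KO-labelled replicates 1, 3 and 4 the same-numbered WT library had the highest r of the WT libraries. KO-labelled replicate 2 stood at 0.11 with WT replicate 3 and at 0.09 with its own number. With the replicate block, 1243 genes were called higher and 1292 lower, and 4 members were higher, with Irgm2 at 0.32 (adjusted p = 0.015) and Ifi47 at 0.48 (adjusted p = 0.0245) past the threshold.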

Other observations

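The genes lying between the members on chromosome 11 were few. In the cluster from 48861968 to 49096974, which holds Irgm1, Tgtp1, Tgtp2 and Ifi47, 5 other genes could be tested and 0 were called by limma, nor was any at an unadjusted p under 0.05. They include the family genes Gm12185, 9930111J21Rik1 and 9930111J21Rik2. Over all genes limma called 9.47%, and 10.8% were higher and 12.2% lower unadjusted, so 5 genes are too few to be set apart. Psme2b, a proteasome activator copy, had a log2 change of 0.84 (adjusted p = 0.587) at a mean of 13.1 normalized counts in WT, and the odorant receptor gene Olfr56, which overlaps Ifi47, 0.48 (adjusted p = 0.568).

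The genes with the most similar profile to the mean of the members, among 9882 abundant named genes, were Gars, Prodh, Prrg4, Crls1, Crebrf, Max, Ifi203 and Resf1, with Pearson's r between 0.944 and 0.965 over the 8 libraries. Of these, Crebrf, Ifi203 and Resf1 were called higher (limma, log2 changes 0.35, 0.35 and 0.47). Ifi203 is the interferon-inducible gene among them. After the group means were subtracted, the most similar were Ncoa1, Hace1, Prag1, Crls1, Zfyve16, Vps8, Olfr56 and Ccdc90b, with r between 0.957 and 0.983. Crls1 was on both lists. With 9882 genes and 8 libraries such values of r are a description only.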
